A study of Mus musculus with 4 samples.

Results

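The IkB family holds the inhibitors that bind NF-kB transcription factors through ankyrin repeats. Its 6 genes examined here are Nfkbia, Nfkbib, Nfkbie, Nfkbid, Nfkbiz and Bcl3. Every probe set whose only symbol in the platform annotation was one of them was taken, which gave 14 of the 45037 probe sets that are not controls, or 6 of 18193 named genes. All 14 reached the filter on dim signals, 1 of them (Nfkbiz 1457404_at) only through the zymosan arrays. The values are log2 expression levels on 4 Affymetrix Mouse430_2 arrays, on which a probe set is a group of short oligonucleotides aimed at a transcript. All arrays came from macrophages of MyD88 -/- bone marrow, grown in recombinant human M-CSF for 6 days. On 2 arrays the cells were unstimulated (0 min), and on the other 2 they had received zymosan, a yeast cell wall particle, at 100 ug/ml for 120 min. MyD88 is the adaptor of most Toll-like receptors, zymosan is also bound by the lectin Dectin-1, and no wild-type array was analysed here. Nothing in the labels says that replicate arrays stem from different mice or cultures. The p-values therefore describe only how far these 4 arrays scatter, and that scatter may be technical.

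In resting cells the classical inhibitors, IkB-alpha (Nfkbia), IkB-beta (Nfkbib) and IkB-epsilon (Nfkbie), hold NF-kB dimers in the cytoplasm. The IkB kinase complex marks them for ubiquitination and breakdown, and the freed dimers enter the nucleus, where they also switch on the gene of IkB-alpha, a textbook negative feedback. The atypical members IkB-zeta (Nfkbiz), IkB-NS (Nfkbid) and Bcl-3 (Bcl3) are nuclear proteins that bind NF-kB on chromatin and can raise or lower transcription of subsets of its targets. In macrophages several members are known as early genes of Toll-like receptor signalling.

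The promoters are shown because NF-kB is known to act on several of these genes. Whether their sequences bear on the differences in RNA was not tested. RefSeq sequences (GRCm38.p6) matched 5 of the 6 members by symbol, with 7 start sites in all, and Nfkbiz was not matched. The 250 bases before each start were searched on both strands for the classical kB consensus, a 10-base motif of 3 G, a purine, any 2 bases, 2 pyrimidines and 2 C. Capitals mark matches, which are descriptions of letters and not sites of binding. The array values carry no coordinates of their own.
Nfkbia promoter, chr12:55492648-55492897, - strand: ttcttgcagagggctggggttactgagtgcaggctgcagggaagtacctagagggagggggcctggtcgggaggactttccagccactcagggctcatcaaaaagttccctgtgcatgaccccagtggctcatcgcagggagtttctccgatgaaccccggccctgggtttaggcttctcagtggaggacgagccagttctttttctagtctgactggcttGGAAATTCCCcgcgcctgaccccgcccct
Nfkbie promoter, chr17:45555450-45555699, + strand: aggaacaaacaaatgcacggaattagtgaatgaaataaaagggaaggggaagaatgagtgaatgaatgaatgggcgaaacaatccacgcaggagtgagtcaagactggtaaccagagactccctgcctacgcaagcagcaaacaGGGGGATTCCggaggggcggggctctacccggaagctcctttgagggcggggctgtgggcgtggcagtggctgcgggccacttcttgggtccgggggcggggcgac
Nfkbid stretch, chr7:30422170-30422199, + strand: gccccgccctGGGACTTCCCagagcaccac
Nfkbid stretch, chr7:30422215-30422244, + strand: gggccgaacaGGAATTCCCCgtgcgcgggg
Bcl3 promoter, chr7:19822756-19823005, - strand: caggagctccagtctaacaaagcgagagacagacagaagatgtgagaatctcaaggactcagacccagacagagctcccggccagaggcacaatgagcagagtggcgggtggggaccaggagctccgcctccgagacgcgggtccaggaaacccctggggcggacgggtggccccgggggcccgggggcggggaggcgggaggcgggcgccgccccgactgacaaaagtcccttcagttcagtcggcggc
Nfkbib promoter, chr7:28766645-28766894, - strand: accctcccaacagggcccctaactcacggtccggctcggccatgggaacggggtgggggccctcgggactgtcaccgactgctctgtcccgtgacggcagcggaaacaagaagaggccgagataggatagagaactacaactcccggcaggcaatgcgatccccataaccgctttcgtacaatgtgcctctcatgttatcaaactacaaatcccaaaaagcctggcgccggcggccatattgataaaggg

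The consensus occurred in 3 of the 5 matched members. In Nfkbia it began 29 bases before the start, on the opposite strand. In Nfkbie it began 106 bases before the start. In Nfkbid the matches lay before the second of its 3 start sites, beginning 226 and 181 bases before it, and the match at 226 read on both strands. The windows of Bcl3 and Nfkbib held none. Of 32851 such windows in the whole table, 7.25% held at least 1 match, and 8.23% of 27025 genes had 1 at some start.

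The deposited values are RMA log2 values, and array medians lay between 4.92 and 4.94. By the scanner's record, unstimulated 2 followed unstimulated 1 by 16 days, and the zymosan arrays shared 1 day, 153 days after unstimulated 1. Since no day held both groups, the stimulus and the day of processing cannot be told apart. The titles of the unstimulated arrays also carry the letters LPS and PIC. The targeted gene, Myd88, had values of 8.72 and 8.78 on unstimulated and 8.37 and 8.40 on zymosan arrays. The difference of -0.37 (SE 0.10) was not called, with limma's adjusted p = 0.067 over probe sets and 0.051 over genes. Over genes Myd88 was called under 4 of 12 alternatives, such as the mean of all probe sets of a gene (limma's adjusted p = 0.042). Where its probes lie relative to the deletion is not known here, so it checks no label. Of 10 macrophage markers, all lay above the filter level of 4.36 to 4.39 on every array. With zymosan 6 were lower, where 6.73% of all genes were. The summed level (log2) of that list was 15.6 to 15.8 on unstimulated and 15.5 on zymosan arrays. Of 11 measured markers of neutrophils and their precursors, 9 were higher with zymosan, where 10.1% of all genes were. Their summed level (log2) was 10.1 to 10.2 on unstimulated and 12.3 to 12.4 on zymosan arrays. Of 4 measured erythroid and megakaryocyte markers 1 was called higher, the platelet factor gene Pf4 (0.43, limma's adjusted p = 0.040). That list's summed level, 12.7 to 12.8 without and 13.2 with zymosan, was almost that of Pf4 alone. Pf4 read 12.70 and 12.81 without and 13.14 and 13.22 with zymosan. Itga2b (-0.15) and Klf1 (0.01) were not called, and Hba-a1 lay below the filter level on all arrays. In the lists of T and NK, B, dendritic, mast and stromal cells 0 were called higher. Called lower were 1 B cell marker (Cd79b, -0.58) and 1 dendritic cell marker (Itgax, -0.93). The part of the neutrophil markers and of Pf4 in the results below was not tested. In such bulk RNA a change in cell numbers and a change in RNA per cell cannot be told apart.

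Zymosan arrays had more RNA of 5 of the 6 inhibitors, and the sixth, Nfkbib, did not pass the test. Of the 14 probe sets, 12 rose (adjusted p under 0.05 by limma, over all 27571 tested), where 8.48% of all tested probe sets rose. None of the 14 fell, while 7.45% of all did. By at least 2-fold, 10 of the 14 rose, against 2.41% of all. A probe set that reached the filter through 1 group had to differ, and without Nfkbiz 1457404_at the counts were 11 of 13 higher and 9 by at least 2-fold. The groups did not overlap in any of the 14, with both zymosan arrays above both unstimulated ones, which 30.4% of all tested probe sets also showed. The differences (zymosan minus unstimulated, log2) ran from 0.13 to 2.43 over those 13 with a median of 1.39, and the median of all probe sets was -0.01. The smallest p that an exact permutation test (2-sided) allows in this design is 0.333, so limma's p-values rest on the variance shared across probe sets, and the number of arrays limits the precision.

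**Figure D1:**
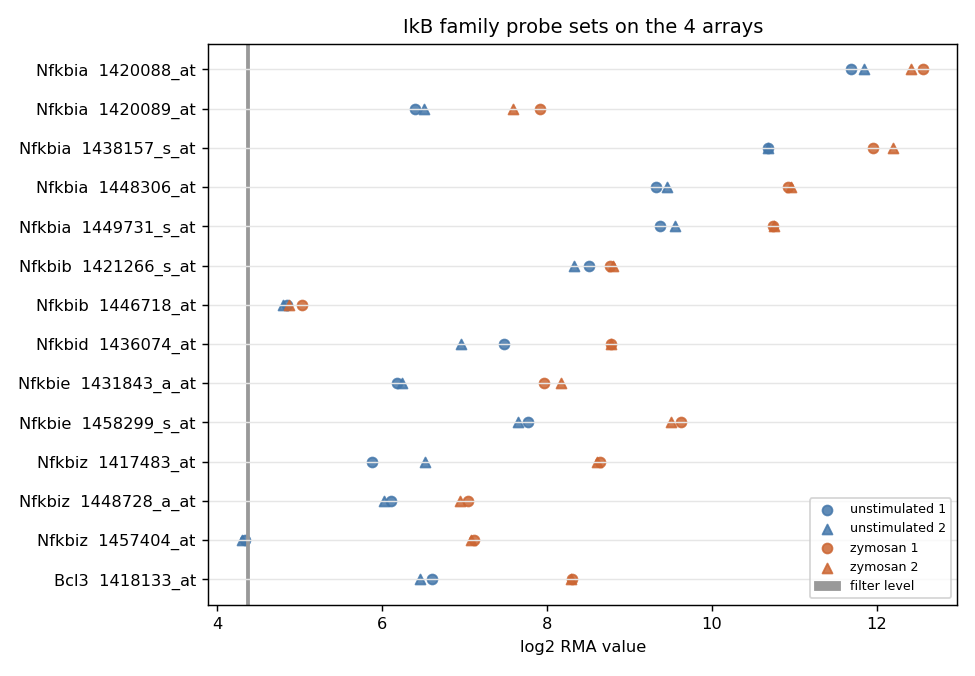
Log2 RMA values (horizontal axis) of the 14 IkB family probe sets on each of the 4 arrays, with circles and triangles for replicates 1 and 2 and a grey band for the filter level of 4.36 to 4.39. The zymosan points lie to the right of the unstimulated ones in every row, by a small distance at the rows of Nfkbib, and the unstimulated points of Nfkbiz 1457404_at lie at the band.

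Among the classical inhibitors, Nfkbia rose at all 5 of its probe sets. Probe set 1448306_at was at 9.32 and 9.46 on unstimulated and 10.93 and 10.96 on zymosan arrays. The groups were far apart there relative to the gap within either, and the difference was 1.56 (SE 0.11, 2.94-fold, adjusted p = 0.0025). The most intense of the 5, 1420088_at, gave the smallest difference. It read 11.69 and 11.85 without and 12.57 and 12.41 with zymosan, a rise of 0.72 (SE 0.12, 1.65-fold, adjusted p = 0.017). The other 3 rose by 1.29 to 1.39 from unstimulated means of 6.46 to 10.69. The difference at 1448306_at exceeded that at 1420088_at by 0.84 (95% interval 0.04 to 1.63, widened for 15 pairs of probe sets within genes), and no other pair for Nfkbia had an interval clear of 0. Gene-level values below use the brightest probe set of a gene. For Nfkbia that is 1420088_at, so its gene-level value is the lowest of the 5.

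Nfkbie, which encodes IkB-epsilon, rose alike at both of its probe sets. Probe set 1458299_s_at read 7.77 and 7.65 on unstimulated and 9.63 and 9.50 on zymosan arrays, a rise of 1.85 (SE 0.11, 3.62-fold, adjusted p = 0.0021). Probe set 1431843_a_at read 6.18 and 6.24 without and 7.97 and 8.18 with zymosan, a rise of 1.86 (SE 0.12). The responses at the 2 probe sets differed by -0.01 (95% interval -0.81 to 0.80). In both, the gap between the groups was several times that between replicates.

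Nfkbib, which encodes IkB-beta, was the one member with no call at either probe set. Probe set 1421266_s_at read 8.51 and 8.32 on unstimulated and 8.77 and 8.81 on zymosan arrays. The difference was 0.37 (SE 0.12, 95% interval 0.09 to 0.66, adjusted p = 0.086), with the unstimulated arrays 0.18 apart. Probe set 1446718_at, a dimmer one, read 4.84 and 4.80 without and 5.03 and 4.88 with zymosan, a difference of 0.13 (SE 0.11, adjusted p = 0.49). Both intervals lie below a 2-fold rise, since their upper ends are 0.66 and 0.41.

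Nfkbiz, which encodes IkB-zeta, had the largest differences of the family, at 2 of its 3 probe sets. Probe set 1457404_at read 4.34 and 4.31 on unstimulated arrays, both below the filter level, and 7.12 and 7.09 on zymosan arrays. RMA gives a value also where a transcript is absent, so the rise is given only as a bound, at least 6.56-fold against the level, and its test is no evidence, since the zymosan arrays alone brought it past the filter. Probe set 1417483_at read 5.88 and 6.52 without and 8.65 and 8.61 with zymosan. It rose 5.39-fold (2.43, SE 0.22, adjusted p = 0.0041), with the widest gap between unstimulated arrays of all 14 probe sets, 0.64. The third, 1448728_a_at, read 6.11 and 6.03 without and 7.04 and 6.94 with zymosan, a rise of 0.92 (SE 0.11, 1.89-fold, adjusted p = 0.0073). That is less than at 1417483_at by 1.51 (95% interval of the difference -2.68 to -0.34). On these arrays an ending in _a_at marks probes shared by alternative transcripts of a gene, and one in _s_at marks probes that may match several transcripts.

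The other atypical members rose as well, each on a single probe set. Nfkbid, which encodes IkB-NS, read 7.48 and 6.95 on unstimulated arrays and 8.78 on both zymosan arrays (1436074_at). The rise was 1.56 (SE 0.19, 2.95-fold, adjusted p = 0.0076), and the unstimulated arrays were 0.53 apart. Bcl3, which encodes a partner of NF-kB p50 and p52 homodimers, read 6.61 and 6.46 without and 8.31 and 8.29 with zymosan (1418133_at). It rose by 1.76 (SE 0.11, 3.40-fold, adjusted p = 0.0021), with narrow gaps within both groups.

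**Figure D2:**
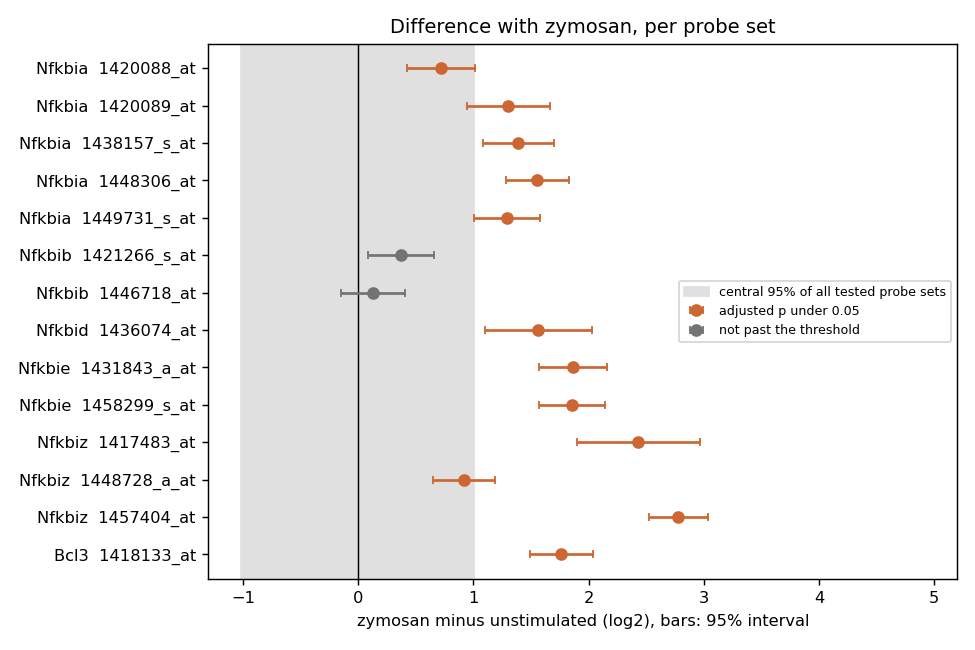
Difference between zymosan and unstimulated means (log2, horizontal axis) for each IkB family probe set, with limma's 95% intervals as bars, n = 2 arrays per group, the fitted value of Nfkbiz 1457404_at resting on unstimulated arrays below the filter level. The grey area spans the central 95% of all tested probe sets, and 10 of the 14 points, that one included, lie to its right.

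Members were then compared with each other in how far they moved, with 95% intervals widened for all 15 pairs and the errors of genes taken as independent. At the gene level the differences ordered as Nfkbiz 2.43, Nfkbie 1.85, Bcl3 1.76, Nfkbid 1.56, Nfkbia 0.72 and Nfkbib 0.37. The first 4 did not separate: among their 6 pairs every interval included 0, the widest being that of Nfkbiz over Nfkbid (0.87, -0.43 to 2.17). Nfkbib moved less than each of them, for example than Nfkbie by 1.48 (0.76 to 2.20). Nfkbia moved less than Nfkbie, Nfkbiz and Bcl3, while its intervals against Nfkbib (-1.09 to 0.39) and Nfkbid (-0.16 to 1.85) included 0. The place of Nfkbia turned on its probe set. With the mean of all probe sets of a gene its difference was 1.25. Nfkbia then moved further than Nfkbib (interval of Nfkbib minus Nfkbia -1.64 to -0.36), and Nfkbib moved less than all 5 others. Nfkbia moved less than Nfkbiz alone (interval of Nfkbiz minus Nfkbia 0.13 to 1.45). The Nfkbiz mean of 2.04 includes 1457404_at (2.78), which passed the filter only through the zymosan arrays. Whether Nfkbiz and Nfkbia separate without that probe set was not tested.

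Between the unstimulated arrays, processed 16 days apart, the family did not shift in one direction. That pair cannot speak to the days between the groups, as the zymosan arrays came 153 days after unstimulated 1. Unstimulated 1 was the higher of the pair at 8 of 14 probe sets, with a median difference of 0.02, and the largest gaps went opposite ways, -0.64 at Nfkbiz 1417483_at and 0.53 at Nfkbid. Probe sets of 1 gene are not independent in this count. Those of Nfkbia gave -0.15, -0.11, 0.001, -0.14 and -0.18. The zymosan arrays, which share a day, were at most 0.33 apart, at Nfkbia 1420089_at. Over all tested probe sets the SD of these differences was 0.29 for the unstimulated and 0.20 for the zymosan pair, and over the 14 it was 0.26 and 0.15.

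The other genes of the pathway were taken from 6 lists, of which 74 of 83 listed symbols were tested at the gene level. Of the 74, 33 rose and 3 fell (31 and 3 of the 71 above the filter level in both groups), where 10.1% of all 13222 genes rose and 6.73% fell. Their median difference was 0.34 against 0.00 for all genes and 1.66 for the 6 inhibitors, of which 5 rose. All 6 inhibitors had groups that did not overlap, which 32.4% of all genes also showed in that direction, and 4 rose by at least 2-fold, against 2.09% of all genes. Unless said otherwise, the p-values in this and the following paragraphs on pathway genes are limma's, adjusted over all genes. Without zymosan replicate 1 the lists' counts were 18 higher and 1 lower, without zymosan replicate 2 they were 17 and 0, and without unstimulated replicate 1 they were 36 and 5. A random block for the day, its correlation set from the variances of the 2 pairs and not fitted, gave 29 and 0. With that block 4.33% of all genes were called higher. The shares of 10.1% and 6.73%, here and below, are those of the main fit. They are not the background for counts with an array left out or with the block.

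The NF-kB subunits rose in part. Relb, partner of p52 in the alternative pathway, read 6.79 and 6.80 on unstimulated and 8.03 and 7.92 on zymosan arrays (difference 1.18, SE 0.10, adjusted p = 0.0023). Rel, or c-Rel, rose by 1.21 (adjusted p = 0.0052), and Nfkb2, which encodes p100 with its own IkB-like ankyrin repeats, rose by 0.66 (adjusted p = 0.010). Rela, the p65 subunit that IkB-alpha holds, read 9.39 and 9.62 without and 9.51 and 9.56 with zymosan, so its groups overlapped (0.03, adjusted p = 0.89). Nfkb1 is not analysed here. Without either zymosan array in turn Nfkb2 was not called (adjusted p = 0.10 and 0.096).

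The genes whose products remove IkB proteins were called about as often as all genes, of which 10.1% rose and 6.73% fell. Of 11 kinases and activators, 1 rose and none fell, with a median of -0.01. The riser was Ikbke, an IkB kinase relative known to be induced in macrophages, at 0.74 (adjusted p = 0.0098). Ikbkb, the catalytic subunit that marks IkB-alpha, differed by -0.01 (adjusted p = 0.96) where it was represented, whereas another of its probe sets, 1454184_a_at, fell by 1.10 (adjusted p = 0.0082 over probe sets). Of 9 genes of the ubiquitin ligase and its partners, none rose and 1 fell, with a median of 0.09. That was Skp1, a scaffold of the ligase, at -0.85 (adjusted p = 0.018), with its zymosan arrays 0.39 apart. Without zymosan replicate 1 or 2 limma did not call Ikbke (adjusted p = 0.093 each time), nor Skp1 without zymosan replicate 2 (adjusted p = 0.12) or with the day as a random block (0.073). Where limma called none lower or higher, the genes with an unadjusted p under 0.05 numbered 2 kinases and activators lower (Map3k14 and Tab2) and 2 ligase genes higher (Fbxw11 and Cul1).

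Other negative regulators were mixed, with 5 of 16 higher and 1 lower and a median of 0.22. Tnfaip3, or A20, a deubiquitinase and itself a feedback gene, read 7.79 and 7.81 without and 10.41 and 10.45 with zymosan, a rise of 2.63 (SE 0.095, adjusted p = 0.00021), beside 2.43 for Nfkbiz at the gene level, a difference that was not tested. With the mean of all probe sets of a gene it rose by 2.03 and Rnf11, below, by 0.37. Its partner Tnip1 rose by 0.82 and Rnf11, another member of the A20 complex, by 0.70. Nkiras1, a small GTPase-like protein that binds IkB-beta, rose by 0.78 and the RNA-binding Rc3h1 by 0.43. Pdlim2, which promotes breakdown of nuclear p65, fell by 0.74. Only Tnfaip3 of these 6 was still called when either zymosan array was left out. The range of adjusted p for the others was then 0.076 to 0.25. Under a random block for the day 2 of the 16 were higher and 0 lower, and the calls of Rnf11 (adjusted p = 0.052), Tnip1 (0.054), Rc3h1 (0.12) and Pdlim2 (0.052) were lost.

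Of the target genes of NF-kB, 22 of 30 rose and 1 fell, with a median of 1.28, where 10.1% of all genes rose and 6.73% fell. This list was written with earlier results of these data known. Those of smallest p were Csf1, the M-CSF gene (4.40), Ptgs2, the inducible cyclooxygenase (at least 6.18-fold, from below the filter level), Il1b (1.84) and Irf1 (2.06). The sizes for Csf1 and Ptgs2 hold for the representing probe set, and with the mean of all probe sets of the gene they were 2.18 and 2.31. Ptgs2 and Il1a reached the filter only through the zymosan arrays, so they had to differ, and their calls, 2 of the 22, are no evidence. Tnf read 7.71 and 7.35 without and 9.40 and 9.36 on zymosan arrays, with wide separation (1.85, SE 0.14, adjusted p = 0.0018). The gene that fell was Ccl5 (-0.76, adjusted p = 0.029), named after its value was seen. With zymosan replicate 1 or 2 left out, 13 target genes were higher each time and 0 were lower, where Ccl5 had been called, and 0 were lower with the random block.

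Genes reported to need IkB-zeta were measured in part. Of 10 listed, 5 lay below the filter, namely Il6, Il12b, Csf2, Csf3 and Il12a. Of the remaining 5, 3 rose, where 10.1% of all genes did. Ptges, named to complete the list, differed by -0.19 and was not called (adjusted p = 0.24). Lcn2, the siderophore-binding lipocalin, read 5.28 and 4.95 without and 6.87 and 6.76 with zymosan (1.70, SE 0.14, adjusted p = 0.0021). Edn1, the endothelin gene, read 4.15 and 4.04 without and 4.38 and 4.48 with zymosan, close to the filter level throughout, and was not called (adjusted p = 0.082). Camp, the cathelicidin gene, rose by 0.97 (adjusted p = 0.011) and the chemokine gene Ccl2 by 0.98 (adjusted p = 0.014). Camp is also among the neutrophil markers, of which 9 of 11 measured were higher, and Lcn2 is stored in neutrophil granules. Ccl2 lost its call without either zymosan array (adjusted p = 0.090 and 0.12) and Camp without zymosan replicate 2 (adjusted p = 0.089).

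**Figure D3:**
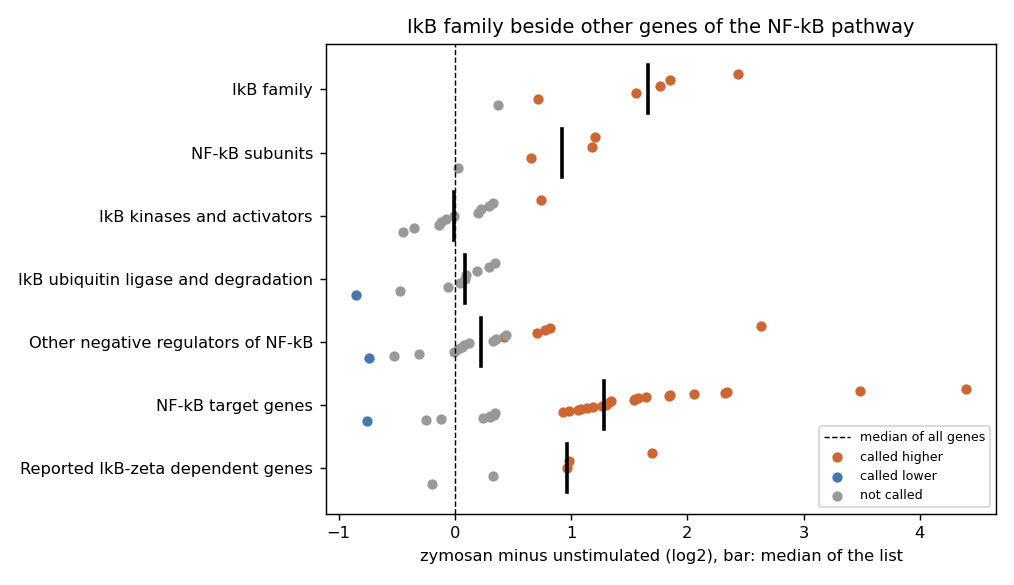
Difference between zymosan and unstimulated means (log2, horizontal axis) for each tested gene of the IkB family and of the 6 pathway lists, 1 point a gene, coloured by limma's call, with a bar at each list's median and a dashed line at the median of all genes. The medians are 1.66 for the IkB family, 1.28 for target genes and -0.01 for IkB kinases and activators.

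The profile of Nfkbiz, the member with the largest gene-level difference, was set against all other genes by Euclidean distance over the 4 arrays after centring each gene. The nearest was Cd83, an activation marker of antigen-presenting cells, at a distance of 0.11 (log2). It read 7.72 and 8.44 without and 10.42 on both zymosan arrays. Next came S100a8, a calprotectin subunit (0.24), the chemokine gene Cxcl2 (0.28), the zinc finger gene Hivep3 (0.31) and the desaturase gene Scd1 (0.31). All 5 rose, by 2.12 to 2.49, and were lower on unstimulated 1 than on unstimulated 2, as Nfkbiz was. Choosing genes by their distance to Nfkbiz builds in this likeness. These are values of the representing probe sets, and with the mean of all probe sets of a gene the rise was 0.57 for Hivep3 and 1.47 for Scd1. S100a8 is also 1 of the neutrophil markers named above. With only 4 arrays this is a description.

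The calls depended on the zymosan arrays that share a day. Without zymosan replicate 1, 9 of the 14 probe sets were called, and without zymosan replicate 2, 8 were, while the share of all probe sets called higher was 1.28% and 0.838%. The calls lost both times were those of Nfkbia 1420088_at (adjusted p = 0.13 and 0.10), Nfkbid (0.060 and 0.071) and Nfkbiz 1448728_a_at (0.071 and 0.070), and Nfkbia 1449731_s_at was lost without zymosan replicate 2 (0.054). These counts include Nfkbiz 1457404_at, and the adjusted p-values in this paragraph are limma's over all tested probe sets. Leaving out either unstimulated array gave 12 calls, and the random block of days gave 11, without Nfkbia 1420088_at (0.052). At the gene level Nfkbie, Nfkbiz and Bcl3 were called under all 12 alternatives tried, and Nfkbib under 3 of them.

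**Figure D4:**
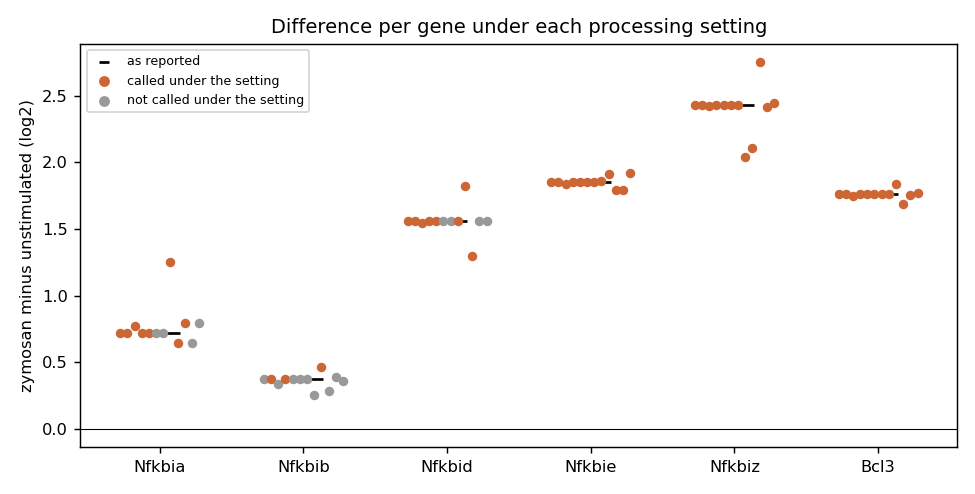
Difference between zymosan and unstimulated means (log2, vertical axis) for the 6 IkB family genes as reported (black dash) and under each of 12 other processing settings (points, coloured by whether limma called the gene there). Settings that change only the filter, the variance model or the test leave the difference where it was, and the highest for Nfkbia, 1.25, is the mean of its 5 probe sets.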

How the data were processed

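The authors deposited log2 values computed by RMA, according to the submitters' processing notes, a method of background correction, quantile normalization and probe summary. The sources used here do not give its version or which arrays were normalized jointly. The scanner settings files gave the chip type and processing day only. After 64 controls were removed, 34945 of 45037 probe sets had 1 symbol in the platform annotation, 932 several and 9160 none. Kept were the 27571 probe sets that on 2 or more arrays reached that array's 40th percentile. A gene was represented by its kept probe set of highest mean (13222 genes). limma 3.58.1 in R 4.3.3 gave 2-sided moderated tests (lmFit, eBayes), adjusted by Benjamini-Hochberg across every kept probe set, or across genes, and called at 0.05. SE and 95% intervals are limma's, and the fit was tested on simulated data. The intervals between members were added after seeing the data. Named were all members, every called gene of 4 regulator lists, the 4 of smallest p in the other 2 lists, a few fixed genes and the 5 nearest profiles. Members and lists were chosen with earlier results of these data known. Alternatives changed the filter, normalization, variance prior, minimum fold, representing probe set, treatment of the day, and the arrays included.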

Additional observations from a re-analysis of the deposited data

How the results depend on the processing

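Changes of filter, variance model or test leave the differences themselves as they were, so they bear on the calls only. The count of 12 probe sets called higher was 12 with no filter on dim probe sets, with the 60th percentile, quantile normalization or a trended robust prior, 11 with the day as a random block, 9 with the same-day zymosan arrays averaged to 1 sample and 8 with treat at a minimum fold of 1.5. It ran from 8 to 12 over the arrays left out. The random block and the averaging were chosen after seeing the data, since the planned duplicateCorrelation gave no value for 3 days of 4 arrays. The block's correlation within a day was set to 1 minus the typical ratio of the zymosan pair's variance to the unstimulated pair's. That gave 0.455 over probe sets and 0.494 over genes. Any difference in scatter between the groups is thus counted as an effect of the day. Averaging leaves 1 zymosan sample, assumed to vary like the unstimulated pair, as does leaving out a zymosan array. The share of all tested probe sets called higher was 8.48% as reported. It was 4.49% without a filter, 13.2% at the 60th percentile, 8.31% after quantile normalization and 9.76% under the trended robust prior. The random block gave 3.75% and treat 0.918%. The probe set counts include Nfkbiz 1457404_at, which passed the main filter only through the zymosan arrays. At the 60th percentile Nfkbib 1446718_at was filtered out. Of all genes, 10.1% were called higher as reported, 4.33% with the random block and 1.02% under treat. Averaging lowered that share as well. The count of 5 genes called higher became 3 under treat and 3 with averaging, and ran from 3 to 6 over the arrays left out. For the pathway lists, the 33 higher became 15 under treat and 18 with averaging, running from 17 to 36 over the arrays left out. The 3 lower became 0 with the random block, with averaging and under treat, and 5 with the mean of a gene's probe sets, running from 0 to 5 over the arrays left out. No paired analysis was possible because the labels give the arrays no shared replicate numbers. Signal over background limits Nfkbiz 1457404_at on unstimulated arrays.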
